A study of Mus musculus with 7 samples.

Results

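The 9 genes described here mark striatal projection neurons, the spiny GABAergic neurons that make up most of the striatum and carry its output. They were Rgs9, Drd1, Drd2, Adora2a, Ppp1r1b, Penk, Tac1, Pde10a and Meis2, chosen by name and read from the gene counts of 7 brain neuron libraries, in which they were 9 of 46333 genes. All 9 passed the filter on low counts. The comparison asks how the transcripts of neurons differ when they lack the interleukin-4 receptor alpha chain, which Il4ra encodes.

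Each library was made from neurons of adult mice in which both Il4ra alleles are floxed, that is, flanked by sites that Cre recombinase recombines. The il4ra fl/fl.Syn cre+ group (n = 3) also carried Syn cre, a Cre transgene driven in neurons by the promoter of synapsin 1, and the il4ra fl/fl.Syn cre- group (n = 4) did not. Recombination removes exons 7 to 9 of Il4ra. The study describes the animals of this experiment as littermates of 12 to 16 weeks, and its isolation protocol names females of 10 to 15 weeks. Whole brains were dissociated and microglia, oligodendrocytes and astrocytes were removed with magnetic beads. The striatum was not dissected, and its share of each cell suspension was not recorded. The study checked the purity of its isolates by flow cytometry, with an endothelial marker among the antibodies, and reported highly enriched neurons. The controls lack Cre as well as its effect on Il4ra, and these cannot be told apart. Library totals ran from 68213223 to 94376841 counts. Levels are given as CPM, the counts of a gene per 1000000 counts of its library after scaling. The count of Il4ra over the whole gene, which does not resolve the deleted exons, was 24.4 to 29.5 CPM in cre+ and 20.03 to 29.6 CPM in cre-.

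Striatal projection neurons fall into classes with opposite responses to dopamine. Neurons of the direct pathway carry the D1 dopamine receptor (Drd1) and make substance P from Tac1, and neurons of the indirect pathway carry the D2 receptor (Drd2) and an adenosine receptor (Adora2a) and make enkephalin from Penk. D1 receptors and this adenosine receptor raise cyclic AMP and D2 receptors lower it. Both classes hold DARPP-32 (Ppp1r1b), a phosphatase inhibitor switched on by protein kinase A, the cyclic nucleotide phosphodiesterase PDE10A (Pde10a), and the G protein regulator RGS9 (Rgs9), which ends signaling by G proteins of the inhibitory class. Meis2 encodes a homeodomain transcription factor of the striatal lineage that is also made by other neurons, among them newborn interneurons on their way to the olfactory bulb.

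Promoters are shown for 5 of the genes that the comparisons below turn on: the receptors of the opposed classes, the peptide gene with the widest range between libraries, and the 2 genes that DESeq2 called. Of the 9 genes, 6 were in the RefSeq promoter table. Adora2a, Ppp1r1b and Penk were not matched. Drd1 had 2 entries, of which the first is shown. Each sequence is the 250 bases before the start site, 5′ to 3′ on the gene's strand, from build GRCm38.p6, and capitals mark matches to the searched motifs. The windows are chr6:7554811-7555060 (plus strand) for Tac1, chr13:54055659-54055908 (minus) for Drd1, chr9:49340153-49340402 (plus) for Drd2, chr11:109298182-109298431 (minus) for Rgs9 and chr2:116064620-116064869 (minus) for Meis2.
Tac1: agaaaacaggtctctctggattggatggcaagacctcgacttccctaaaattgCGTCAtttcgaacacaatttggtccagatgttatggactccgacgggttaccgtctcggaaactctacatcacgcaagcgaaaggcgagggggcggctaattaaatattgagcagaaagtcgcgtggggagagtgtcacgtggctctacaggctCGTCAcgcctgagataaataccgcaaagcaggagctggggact
Drd1: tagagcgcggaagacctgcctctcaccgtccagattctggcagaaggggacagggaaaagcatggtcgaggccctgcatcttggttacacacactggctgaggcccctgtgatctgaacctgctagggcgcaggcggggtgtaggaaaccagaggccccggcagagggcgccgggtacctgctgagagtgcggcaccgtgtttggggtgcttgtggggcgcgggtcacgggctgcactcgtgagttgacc
Drd2: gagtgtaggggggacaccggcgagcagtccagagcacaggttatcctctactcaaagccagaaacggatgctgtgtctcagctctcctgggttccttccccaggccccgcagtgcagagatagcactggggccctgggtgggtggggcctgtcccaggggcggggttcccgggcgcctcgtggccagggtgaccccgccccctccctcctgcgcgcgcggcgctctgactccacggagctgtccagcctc
Rgs9: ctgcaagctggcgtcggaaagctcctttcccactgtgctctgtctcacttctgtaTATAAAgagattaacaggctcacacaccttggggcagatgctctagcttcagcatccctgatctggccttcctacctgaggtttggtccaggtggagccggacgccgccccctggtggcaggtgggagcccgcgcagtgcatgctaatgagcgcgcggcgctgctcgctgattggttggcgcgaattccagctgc
Meis2: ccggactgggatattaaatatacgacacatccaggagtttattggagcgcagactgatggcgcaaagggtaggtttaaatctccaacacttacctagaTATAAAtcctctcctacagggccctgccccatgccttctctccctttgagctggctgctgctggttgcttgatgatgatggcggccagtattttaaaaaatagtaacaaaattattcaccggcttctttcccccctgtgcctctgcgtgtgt
Searched on both strands were the full cyclic AMP response element TGACGTCA, its shorter form CGTCA, which the full element contains, the MEIS core TGACAG and the TATA motif TATAAA. Tac1 held CGTCA at 197 and at 43 bases before the start. Rgs9 held TATAAA at 195 bases and Meis2 at 152 bases before the start. Whether any of these matches acts at these start sites was not tested. The windows of Drd1 and Drd2 held none of these letters. Over 32851 promoter windows of the same length, CGTCA was in 17.8%, TATAAA in 12.4%, TGACAG in 15.9% and TGACGTCA in 1.55%.

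All 9 genes had a log2 fold change below 0 (cre+ minus cre-), as did 54.0% of the 21542 genes tested, and none passed the main test. The median over the 9 genes was -0.86 on the log2 scale, beside -0.04 over all genes tested, and the values ran from -1.23 for Rgs9 to -0.02 for Ppp1r1b. In edgeR's quasi-likelihood test the adjusted p was 0.05 or less for 0 of the 9, and the share of all genes called was 0.00%. At an unadjusted p under 0.05, Rgs9 and Meis2 were lower, beside 9.75% of all genes lower and 20.0% in either direction. DESeq2, the test the study used, called the same 2 genes lower, beside 5.48% of the 16345 genes to which it gave an adjusted p, and 0 of the 9 higher, beside 6.70%. Meis2 alone had no overlap between genotypes, beside 9.72% of all genes with every cre+ library below every cre- library. The libraries hold many cell types, so fewer striatal neurons in a suspension and less of their RNA per cell cannot be told apart.

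Markers of other cells differed between the genotypes as well. The 26 endothelial markers tested were all detected in every library, and their summed level was 24350 to 33900 CPM in cre+ and 15690 to 22070 CPM in cre-. DESeq2 called 21 of them higher in cre+, beside 6.70% of all genes to which it gave an adjusted p. A list of 30 general neuronal genes held none of the 9 or the other striatal genes. Its summed level was 3484 to 6976 CPM in cre+ and 5940 to 9191 CPM in cre-. DESeq2 called 8 of the 30 lower, beside 5.48% of all genes. Cre+ replicate 1 was lowest of all 7 libraries in the mean of the neuronal list and highest in that of the endothelial list. When the endothelial mean was a covariate in edgeR, 8 of the 9 genes had a log2 fold change above 0, with SE of 0.50 to 0.82. With the neuronal mean 5 did, and none passed the threshold in either fit. The endothelial mean was 9.44 to 9.94 log2 CPM in cre+ and 8.83 to 9.32 in cre-. That fit therefore had no range shared by the genotypes in which to compare them. The part of these lists in the differences between genotypes was not tested further.

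**Figure D1:**
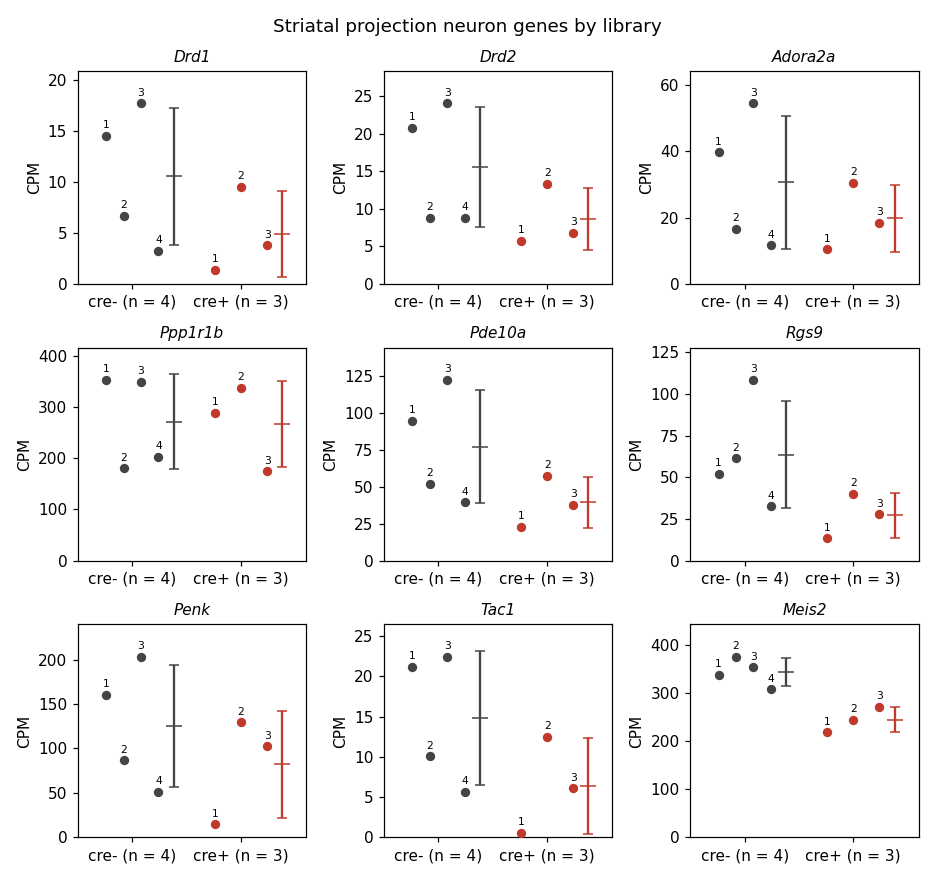
Level of each of the 9 genes in CPM (linear axis from 0) in the 4 cre- (black) and 3 cre+ (red) libraries; points are libraries with their replicate number, horizontal marks the mean and bars the SD. Cre+ replicate 1 is the lowest point for 8 genes, and the points of the genotypes are apart for Meis2 only.

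The dopamine and adenosine receptors had lower means in cre+ than in cre-, with ranges that overlapped. Drd1 (chromosome 13, 54205202 to 54209724, minus strand, GRCm39, as are all gene positions here) measured 1.37, 9.51 and 3.75 CPM in cre+ replicates 1 to 3 and 14.5, 6.68, 17.7 and 3.21 CPM in cre- replicates 1 to 4. Cre+ replicate 2 was above 2 of the control libraries, so the groups overlapped. The cre+ mean of 4.88 ± 4.18 CPM (SD, n = 3) stood beside a cre- mean of 10.5 ± 6.72 CPM (SD, n = 4). This gave a log2 fold change of -1.11 ± 0.73 (SE), with an edgeR adjusted p of 0.438 and an exact two-sided permutation p of 0.257 (the smallest the 35 splits allow is 0.0286).

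Drd2 (chromosome 9, 49251927 to 49319477, plus strand) measured 5.73, 13.4 and 6.81 CPM in cre+ and 20.9, 8.81, 24.1 and 8.76 CPM in cre-. The controls fell into a high and a low pair, and the low pair lay within the cre+ range. Its log2 fold change was -0.86 ± 0.46 (SE, edgeR adjusted p = 0.338). Adora2a (chromosome 10, 75152711 to 75170618, plus strand) measured 10.4, 30.4 and 18.5 CPM in cre+ and 39.7, 16.6, 54.5 and 11.6 CPM in cre-. The same control pair was high, and the log2 fold change was -0.63 ± 0.56 (SE, edgeR adjusted p = 0.577). None of these receptors was called by DESeq2, with adjusted p of 0.251, 0.185 and 0.433 for Drd1, Drd2 and Adora2a.

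Of the signaling proteins inside the cell, Ppp1r1b had the highest level and the smallest difference. Ppp1r1b (chromosome 11, 98239230 to 98248622, plus strand) measured 288.7, 338.3 and 174.3 CPM in cre+ and 352.9, 180.5, 350.1 and 203.0 CPM in cre-. The means of 267.1 ± 84.1 CPM (SD, n = 3) and 271.7 ± 92.7 CPM (SD, n = 4) were closer than the spread within either genotype, and the log2 fold change was -0.02 ± 0.30 (SE, edgeR adjusted p = 0.977). Its direction turned on the library left out, with values of -0.23 to 0.21 when each was omitted in turn. DARPP-32 is also known from the choroid plexus, whose 10 markers summed to 9751 to 28890 CPM in cre+ and 5670 to 13860 CPM in cre-. The part of that tissue in the Ppp1r1b counts was not tested.

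Pde10a (chromosome 17, 8744204 to 9205480, plus strand) measured 22.8, 57.6 and 37.8 CPM in cre+ and 94.8, 52.1, 122.3 and 39.5 CPM in cre-. A single cre+ library, replicate 2, was above the lower controls. Pde10a had a log2 fold change of -0.97 ± 0.44 (SE), with adjusted p of 0.26 in edgeR and 0.0956 in DESeq2.

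Rgs9 (chromosome 11, 109116181 to 109188955, minus strand) had the largest log2 fold change of the 9, with a mean 2.35-fold lower in cre+. It measured 13.4, 40.2 and 27.7 CPM in cre+ and 52.05, 61.3, 108.3 and 32.6 CPM in cre-. The highest cre+ library lay above the lowest control, and the other cre+ libraries lay below all controls. Its log2 fold change was -1.23 ± 0.46 (SE), with an edgeR adjusted p of 0.195, a DESeq2 adjusted p of 0.0365 and an exact two-sided permutation p of 0.0857. The DESeq2 call was lost without cre+ replicate 1 (adjusted p = 0.163), cre+ replicate 3 (0.0815), cre- replicate 2 (0.0955) or cre- replicate 3 (0.171).

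The peptide precursors varied widely between libraries, Tac1 the most of the 9 genes. Penk (chromosome 4, 4133531 to 4138819, minus strand) measured 14.7, 129.3 and 102.6 CPM in cre+ and 160.1, 86.7, 202.9 and 51.02 CPM in cre-. Cre+ replicate 1 stood apart below the other 6 libraries, and the remaining cre+ values lay inside the control range. The log2 fold change of Penk was -0.61 ± 0.69 (SE, edgeR adjusted p = 0.680). Without cre+ replicate 1 it was -0.12 ± 0.48 (SE) in edgeR and -0.10 in DESeq2. Tac1 (chromosome 6, 7554879 to 7565834, plus strand) measured 0.554, 12.5 and 6.11 CPM in cre+ and 21.2, 10.07, 22.4 and 5.62 CPM in cre-. The lowest value rested on 49 counts and the highest library held 1611, a 40.4-fold range in CPM. The log2 fold change was -1.21 ± 0.86 (SE, edgeR adjusted p = 0.475), and the direction remained without cre+ replicate 1, at -0.66 by DESeq2 (adjusted p = 0.534).

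Meis2 (chromosome 2, 115693545 to 115896320, minus strand) had the smallest spread of the 9 and the smallest p. It measured 218.4, 244.2 and 271.7 CPM in cre+ and 338.1, 374.9, 353.4 and 307.7 CPM in cre-. Every cre+ library was below every control, and the mean was 1.40-fold lower. The log2 fold change was -0.49 ± 0.12 (SE), with an edgeR adjusted p of 0.0985, a DESeq2 adjusted p of 0.00391 and an exact two-sided permutation p of 0.0286. The DESeq2 adjusted p moved just above the threshold without cre+ replicate 1 (0.0546) or cre+ replicate 2 (0.0510). Of 19 genes of migrating neuroblasts, cells known to make Meis2, DESeq2 called 10 lower and 0 higher. The shares over all genes were 5.48% and 6.70%. The median log2 fold change of the 19 genes was -0.43. Their mean log2 CPM was 6.77 to 7.11 in cre+ and 7.25 to 7.45 in cre-, so the genotypes were apart for this list too, and the part of neuroblasts in the Meis2 difference was not tested.

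All but Ppp1r1b and Meis2, that is 7 of the 9 genes, shared their highest and lowest libraries, a grouping made after their values were seen. Each of the 7 was highest in cre- replicate 3 and lowest in cre+ replicate 1. The next highest library was cre- replicate 1 for 6 of these and cre- replicate 2 for Rgs9. Cre- replicate 4 ranked 5 or 6 for each of the 7, below cre+ replicate 2 in every case. Over all 9 genes, 8 were lowest in cre+ replicate 1 and 7 highest in cre- replicate 3. The shares over all genes tested were 25.7% and 11.8%, and over 28 other striatal genes 82.1% and 64.3%. Microglia markers were also highest in cre- replicate 3, with a summed 2086 CPM beside 263.3 to 1382 CPM in the other libraries. In the remaining libraries their order was another: they were lowest in cre- replicate 1, at 263.3 CPM, and at 898.4 CPM in cre+ replicate 1. The part of microglia was not tested.

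**Figure D2:**
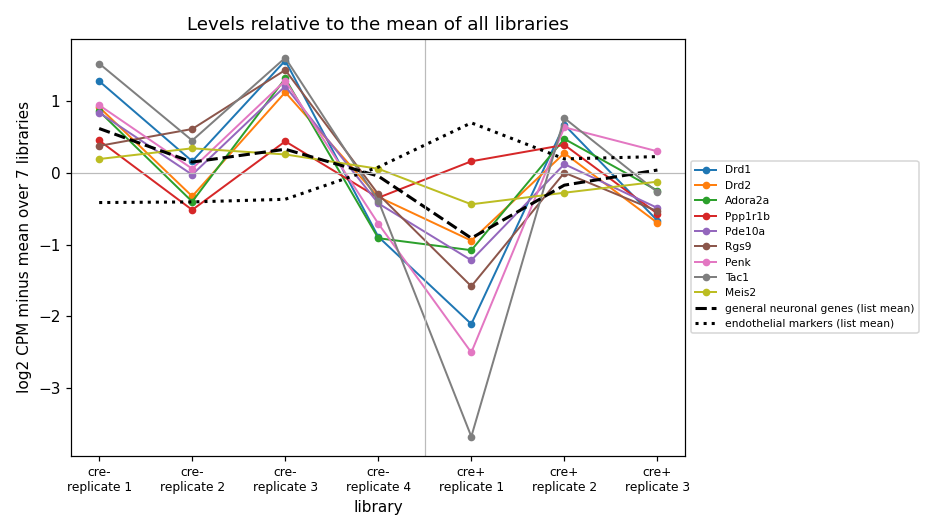
Log2 CPM of each of the 9 genes minus its mean over the 7 libraries, by library, with the mean of the general neuronal list (dashed) and of the endothelial markers (dotted). Tac1, Penk and Drd1 reach furthest below 0 in cre+ replicate 1, where the neuronal mean is at -0.91 and the endothelial mean at 0.70.

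The spread between libraries separated the 9 genes. The SD of log2 CPM over the 7 libraries was 1.80 for Tac1, 1.31 for Drd1, 1.28 for Penk, 0.95 for Rgs9, 0.46 for Ppp1r1b and 0.29 for Meis2. Of 15985 genes with a mean of at least 1 CPM, 99.3% varied less than Tac1 and 50.1% less than Meis2, whose SD was at the median of all genes. Drd1 varied more than 98.6% of these genes, and Drd2, Pde10a, Adora2a and Rgs9 more than 91.9% to 95.5%. Much of that range was found within a genotype: the highest cre- library was 5.51-fold above the lowest for Drd1, 4.68-fold for Adora2a and 3.32-fold for Rgs9, but 1.22-fold for Meis2.

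Levels between genes were compared per kilobase of exon (CPM per kb, mean over 7 libraries). Ppp1r1b was first at 82.5, followed by Penk at 30.6 and Meis2 at 23.2. A gap set these apart from Rgs9 at 7.34, Adora2a at 4.93, Pde10a at 4.65 and Drd2 at 4.02. Tac1 at 2.44 and Drd1 at 1.78, both of the direct pathway, were lowest. The ranges over libraries overlapped between each pair of neighbours in this order, other than between Meis2 and Rgs9.

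Set against the general neuronal list in the same library, the 9 genes had differences of both signs and none separated the genotypes. The log2 CPM of the gene minus the list mean differed between genotypes (cre+ minus cre-) by -1.25 for Tac1, -0.62 for Rgs9, -0.62 for Drd1, -0.32 for Pde10a, -0.31 for Penk and -0.19 for Drd2. The difference was 0.60 for Ppp1r1b, 0.12 for Meis2 and 0.11 for Adora2a. The ranges overlapped for all 9, and the exact two-sided permutation p was 0.2 for Rgs9, 0.429 for Drd1, 0.314 for Tac1, 0.257 for Ppp1r1b and 0.629 for Meis2. Meis2, whose genotypes were apart in CPM, thus overlapped on this scale. The list mean, centred over the 7 libraries, ran from -0.91 to 0.62, and Meis2 from -0.44 to 0.34. The overlap of Meis2 therefore carries the spread of the list as well. With the neuronal mean as a covariate in edgeR, Meis2 had a log2 fold change of -0.345 ± 0.138 (SE, adjusted p = 0.361).

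Ratios of genes within a library do not depend on library size, and 7 pairs were compared. Tac1 over Penk, the peptides of the opposed pathways, was 0.0377, 0.0967 and 0.0596 in cre+ and 0.132, 0.116, 0.110 and 0.110 in cre-. Every cre+ ratio was below every control, and the controls lay close together. The lowest ratio, in cre+ replicate 1, rested on 49 counts of Tac1. The libraries come from whole brains, so counts of either gene from outside the striatum are not separated. On the log2 scale the means were -4.03 ± 0.65 (SD, n = 3) and -3.09 ± 0.12 (SD, n = 4), with an exact two-sided permutation p of 0.0286, or 0.2 after adjustment over the 7 pairs. The matching receptor ratio, Drd1 over Drd2, was 0.239, 0.711 and 0.551 in cre+ and 0.695, 0.758, 0.734 and 0.367 in cre-. It overlapped between genotypes (exact permutation p = 0.486, adjusted 0.514), and cre- replicate 4 lay between the lower cre+ libraries.

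Ppp1r1b over Pde10a, genes of both classes, was 12.7, 5.87 and 4.62 in cre+ and 3.72, 3.47, 2.86 and 5.15 in cre-. Cre+ replicate 1 stood apart, and the lowest cre+ ratio was below the highest control. The log2 means were 2.81 ± 0.76 (SD, n = 3) and 1.89 ± 0.35 (SD, n = 4), with an exact permutation p of 0.0857 and 0.2 after adjustment. Of the other pairs, Drd1 over Adora2a had an adjusted exact p of 0.2, and Drd2 over Adora2a, Rgs9 over Pde10a and Drd1 over Pde10a had 0.44, 0.44 and 0.514. No pair passed the threshold after adjustment.

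**Figure D3:**
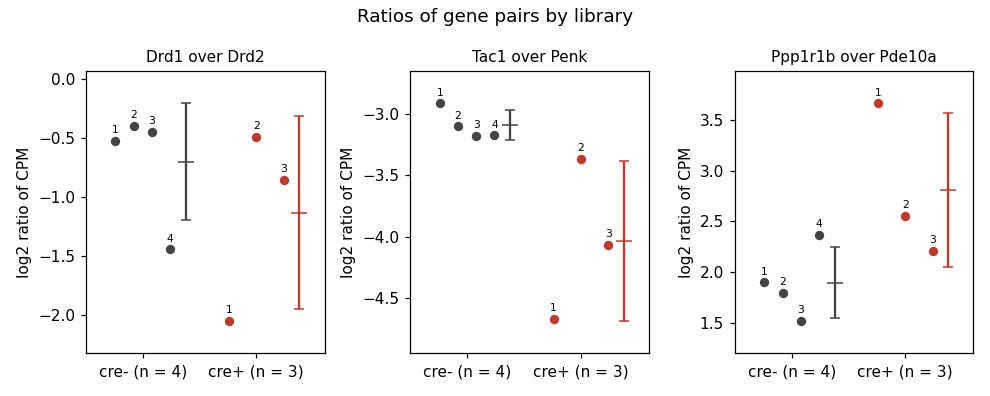
Log2 ratio of CPM for 3 of the 7 gene pairs, by library (cre- black, cre+ red, replicate numbers beside points; horizontal marks are means, bars SD). For Tac1 over Penk the 4 controls lie between -3.18 and -2.92 and the cre+ libraries between -4.67 and -3.37.

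The genes with profiles nearest to each of the 9 were found among 14353 others by the root mean square difference of log2 CPM, centred over the 7 libraries. Pde10a and Drd2 were among each other's 5 nearest, at 0.19, and Pde10a was also among the 5 nearest to Adora2a, at 0.29. Plcxd1, Asic4 and Cpne5 were nearest to Pde10a (0.10, 0.13 and 0.17), and all of these were also among the 5 nearest to Drd2. Plcxd1 was also nearest to Adora2a. Drd1 and Penk shared Slc22a3 and Scn4b, which encodes a sodium channel subunit, as their first neighbours. Among the genes nearest to Tac1 were Mchr1, Gpr101 and Gpr52, which encode G protein-coupled receptors, at 0.35 to 0.41, and Hpca. Rgs9 was nearest to Onecut2, Gprin3, Vipr1, Cntnap5c and Arpp21.

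Ppp1r1b and Meis2 had other neighbours. Nearest to Ppp1r1b were Hdhd3, Six3, Sh3rf2, Slc16a3 and Ndufb1, of which Six3 is a transcription factor of the striatal lineage. Those of Meis2 were Srgap3, Fam78b, Zmym3, Parp11 and Sh3glb2, at 0.05 to 0.06, with log2 fold changes of -0.55 to -0.46. The neighbours come from the same 7 libraries and share their depth and cell makeup.

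Of 28 other genes of the striatum, 26 had a log2 fold change below 0, as did 54.0% of all genes tested. Their median was -0.81. In edgeR 0 were called. DESeq2 called 6 lower, beside 5.48% of the genes to which it gave an adjusted p, and 1 higher, beside 6.70%. Lower were Sp9 (-0.60 ± 0.13, SE), a transcription factor of striatal neurons that migrating neuroblasts also make, the potassium channel partner Kcnip2 (-1.23 ± 0.30), the transcription factor Bcl11b (-0.76 ± 0.21), and Arpp21, Ptpn5 and Chrm4. Higher was Ebf1 (0.48 ± 0.14), a transcription factor of early direct pathway neurons that mural cells also make. The 16 mural markers had a median log2 fold change of 0.65, and their part in the Ebf1 difference was not tested, nor was that of neuroblasts in the Sp9 difference. Sp9 measured 76.2 to 91.7 CPM in cre+ and 109.1 to 152.6 CPM in cre-, and Sp8, a related factor in the neuroblast list, had a log2 fold change of -0.60 ± 0.09. Rasd2 (-0.72 ± 0.50), a small GTPase of the striatum, did not pass either test.

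**Figure D4:**
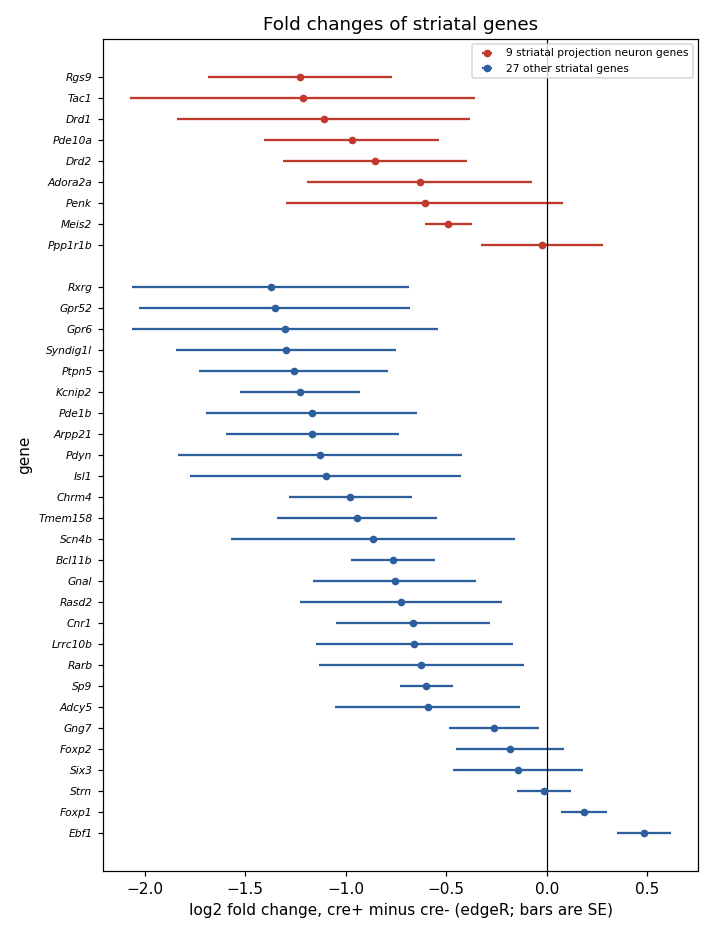
Log2 fold change (cre+ minus cre-, edgeR) of the 9 genes (red) and of 27 other striatal genes (blue); bars are SE and the vertical line is 0. All 9 red points and 25 of the 27 blue points lie left of 0, and among the 9 the bar is widest for Tac1.

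In the pathways of the 9 genes, calls are read beside the 12.2% of all genes that DESeq2 called in either direction. Of 28 genes of dopamine receptors and cyclic AMP signaling, DESeq2 called Cdk5 lower (-0.31 ± 0.09, SE), a kinase that phosphorylates DARPP-32, and Prkar2a higher (0.48 ± 0.11), a regulatory subunit of protein kinase A. The list median was -0.23, and Drd3, Drd4 and Drd5 each had a library at 0. Of 18 phosphodiesterases, Pde7a (-0.44 ± 0.12) and Pde9a (-0.51 ± 0.16) were called lower by DESeq2, with a list median of -0.03. All 8 genes of the RGS9 complex and its family had a log2 fold change below 0, as did 54.0% of all genes. Their median was -0.69, and some of the 8 measured less than 1.6 CPM in every library. DESeq2 called Rgs7 (-1.02 ± 0.36, adjusted p = 0.0467). Rgs11 (-1.08 ± 0.42) was not called. Its cre+ libraries were all below the controls, as for 9.72% of all genes. Rgs7bp, which anchors RGS9 to the membrane, was at -0.70 ± 0.33 and was not called.

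Peptide genes and the partners of Meis2 gave 4 DESeq2 calls, all lower in cre+. Of 16 tested genes of peptide precursors, processing and receptors, 15 had a log2 fold change below 0, as did 54.0% of all genes. The 15 ran from -1.43 to -0.002, and the list median was -0.58. DESeq2 called 3 lower. These were Pcsk1n (-0.90 ± 0.21, SE), an inhibitor of prohormone convertase, and the opioid receptors Oprd1 (-1.43 ± 0.37), which binds enkephalin, and Oprk1 (-1.40 ± 0.46). Of 10 MEIS and PBX genes, 9 were below 0, with a median of -0.14, and DESeq2 called Meis3 lower (-0.69 ± 0.16, adjusted p = 0.00438). The 10 adenosine genes had a median of 0.29, and DESeq2 called Entpd1 higher (0.44 ± 0.13), an enzyme that breaks down extracellular ATP and is abundant on vessels and microglia. In edgeR, none of the genes of these lists was called.

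Other neuron classes had medians below 0 as well. Over all genes, 54.0% were below 0, and DESeq2 called 5.48% lower and 6.70% higher. The general neuronal list had 29 of 30 genes below 0 and a median log2 fold change of -0.59, and 12 cortical excitatory genes were all below 0 with a median of -1.14, of which DESeq2 called 6. Of 11 cerebellar granule cell genes, 8 were below 0, with a median of -0.34, and DESeq2 called Pax6, Etv1, Rbfox3 and Slc17a7, of which Rbfox3 is also in the general neuronal and Slc17a7 in the cortical list. Markers of non-neuronal cells had medians above 0: 0.66 for endothelial cells, 0.95 for meningeal fibroblasts, 0.80 for astrocytes, 0.50 for oligodendrocytes, 0.41 for microglia, 0.88 for ependymal cells and 0.80 for the choroid plexus. DESeq2 called 7 of 16 mural, 7 of 14 fibroblast, 5 of 15 astrocyte, 3 of 15 oligodendrocyte, 3 of 10 ependymal, 0 of 14 microglial and 0 of 10 choroid plexus markers, each higher in cre+. Whether the striatal genes differed from these neuron classes was not tested.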

How the data were processed

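Neurons from whole brains of 3 cre+ and 4 cre- mice were sequenced as poly(A) libraries from 10 ng RNA, with paired reads of 150 bases. The authors used fastp and FastQC for trimming and quality, STAR for alignment to GRCm39, SAMtools to filter alignments and StringTie to count, as the study and the submitters' processing notes say. Neither states versions, annotation release or strand setting. Without strand, reads of genes on the opposite strand cannot be told apart from those of Rgs9, Drd2, Ppp1r1b, Penk, Pde10a and Meis2, which overlap such genes in GENCODE M39. The raw tables the authors deposited hold counts of reads per gene, as whole numbers. The deposited normalized values were not used. After 49 repeated symbols were dropped, 46333 genes remained.

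Counts were tested with edgeR 4.0.16 in R 4.3.3 (quasi-likelihood F-test, genotype as the single term, TMM factors, filterByExpr, robust), and adjusted p-values (Benjamini-Hochberg, 21542 genes) were called at 0.05. DESeq2 1.42.0 took the 29539 genes that had 1 count or more. CPM use TMM factors, and log2 CPM a prior count of 2. Both tests were also run on simulated counts, whose outcome is not used here. Single values were also tested by exact permutation of 3 against 4 libraries. The mice are the replicates. Libraries of the same replicate number were not clearly more alike (correlations of -0.03, 0 and 0.09, beside -0.11 to 0.16 for the other pairs). With so few libraries, these values cannot show that no pairing exists. Lengths are exon unions of GENCODE M39.

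The 9 genes and the 19 other lists were chosen with earlier results of these data known. Beside the 9, named genes were up to 4 of each list with the smallest edgeR p and the 5 nearest profiles per gene. Arpp21, Ptpn5, Chrm4, Rasd2, Drd3, Drd4 and Drd5 were named after their values were seen. One listed gene is not reported here. Alternatives were DESeq2, other scalings and filters, leaving out each library, the replicate number as a block, and endothelial or neuronal list means as covariates.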

Additional observations from a re-analysis of the deposited data

Results flagged for a closer look

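Among 28 groups of 4 control libraries tested for a library that stood apart (Dixon's test), 2 were past its critical value, and chance would give about 1 in 20. Mean log2 CPM of the peptide precursor, processing and receptor genes was 3.93 in cre- replicate 1 and 3.28 to 3.35 in the other controls. That gap was 0.896 of the group's range. For the endothelial markers the mean was 9.32 in cre- replicate 4 and 8.83 to 8.88 in the other controls, a gap of 0.908 of the range. None of the 9 striatal genes had such a library among the controls, and groups of 3 were not tested.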

How the results depend on the processing

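edgeR called 0 genes and 0 of the 9 striatal genes, and DESeq2 called 1990 genes and 2 of the 9. Leaving out each library in edgeR gave 0 to 5 genes, with 5 without cre+ replicate 1, and 0 of the 9 each time. The endothelial covariate gave 1 gene. In DESeq2, leaving out each library, which was chosen after seeing the data, gave 755 to 2258 genes and 0 to 3 of the 9: 0 without cre+ replicate 1, and Rgs9, Drd1 and Pde10a without cre+ replicate 2. With the endothelial covariate the log2 fold changes were 0.37 for Rgs9, 1.62 for Drd1, 0.39 for Drd2, 1.31 for Adora2a, 0.25 for Ppp1r1b, 1.94 for Penk, 1.69 for Tac1 and 0.52 for Pde10a, with a median of 0.52 over the 9 and 0.61 over the other striatal genes. With the neuronal covariate they were 0.55 for Drd1, 0.55 for Adora2a, 0.13 for Ppp1r1b, 1.03 for Penk and 0.78 for Tac1, with medians of 0.13 and 0.12. Below 0 with the neuronal covariate were Rgs9 (-0.47), Meis2 (-0.345), Pde10a (-0.06) and Drd2 (-0.03). Both covariates differ between the genotypes themselves, and the cause of these changes was not tested. Ppp1r1b ran from -0.23 to 0.21 when each library was left out, above 0 without cre+ replicate 3, cre- replicate 1 (0.13) or cre- replicate 3 (0.12). Meis2 kept its direction under all 15 alternatives, at -0.61 to -0.20. Of 135 values of the 9 genes, 117 kept direction and call, 2 gained a call by DESeq2, and 16 changed direction, 13 of them by a covariate. The replicate block called 0 genes and gave a median of -1.22 over the 9, and it changed no call. Other scalings and filters gave 0 genes. The lowest count of the 9 genes was 49, for Tac1 in cre+ replicate 1.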
